A study of Bos taurus with 16 samples.

Results

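Chemokine receptors were examined in CD14+ cells of pregnant cows. Probes were taken where the array's gene name, or the symbol in brackets in its description, was CCR, CXCR or CX3CR with a number, or IL8RA or IL8RB. This found 18 probes of 16 genes, and 2 probes of CXCR5, which the array lists under its older name BLR1, were added through the current symbol of their transcripts. The group thus held 17 of 20453 genes, with 20 probes. Of these, 16 genes with 19 probes were tested, because the scanner marked them as well above background on 4 or more of the 8 channels of either tissue. The exception was LOC529196, a predicted gene described as similar to CCR1, which reached that mark on 0 of 8 channels of blood and 3 of 8 of endometrium. The labels give no treatment, and every animal was pregnant. CD14+ cells, the monocytes and macrophages that carry the co-receptor for lipopolysaccharide, were sorted by flow cytometry from dispersed endometrial stroma and from blood mononuclear cells of the same 4 cows. Animals 1, 2, 3 and 4 were at days 164, 239, 242 and 248 of pregnancy. Each animal was measured on 2 two-colour arrays, with endometrial RNA in 1 dye and blood RNA in the other, so that each tissue had 8 channels. The dyes were swapped between the 2 arrays of animals 1, 2 and 4. Animal 3 had blood in Cy3 and endometrium in Cy5 on both, so dye and tissue cannot be told apart there. The labels give a lower purity to the endometrial preparation than to that of blood.

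Chemokine receptors are G protein-coupled receptors that steer leukocytes along gradients of small secreted chemokines. CC receptors such as CCR2 and CCR3 bind CC chemokines, CXC receptors bind CXC chemokines, and CX3CR1 binds the membrane-anchored chemokine CX3CL1. Blood monocytes are known for CCR2 and CX3CR1, neutrophils for the interleukin 8 receptors, eosinophils and basophils for CCR3, and lymphocytes for CCR7, CXCR3, CXCR5 and CXCR6. In bulk cells such as these, fewer cells of a type and less RNA per cell cannot be told apart.

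Animal 1 stood apart in the markers of the sorted cells. CD14, used for sorting, was well above background in all 16 channels, but its log2 value was 16.12 in the blood of animal 1 against 5.76, 8.85 and 6.94 in animals 2 to 4, and in endometrium 14.04 against 6.07, 9.50 and 7.38. CD3E, a subunit of the T cell receptor complex, ran the other way, with 8.03 in the blood of animal 1 against 14.07, 13.01 and 14.24 in the others. The mean log2 ratio of CD14 was -0.17 (adjusted p = 0.919, limma), with -2.09 in animal 1 and 0.31, 0.65 and 0.44 in animals 2 to 4. Every monocyte, macrophage and blood monocyte marker tested was highest in the blood of animal 1. FCN1, for example, had 16.54 there against 9.42, 9.28 and 9.68 in animals 2 to 4, and CSF1R 14.73 against 6.67, 9.33 and 7.69. Ratios without animal 1 are therefore given beside the called receptors. They do not mark animals 2 to 4 as the more typical CD14+ cells.

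The probes that carried the results were DNA oligonucleotides of 60 bases, of which a stretch of 30 is given, 5′ to 3′, as the array files hold it. They are shown because each value below is the signal of one such probe alone. Capitals mark the hexamer AATAAA, the usual signal for polyadenylation. It was searched on both strands. As written it was in 2536 of 21256 probes of this length (11.9%) and in 2 receptor probes, and on the other strand (TTTATT) in 831 (3.91%) and in 0 receptor probes. The search found it in the probe of IL8RB and in the brighter of 2 probes of CCR7.
CCR3: gcttgattcactcgagtcacataattttaa
IL8RB: ttgctatgttctgtggtataAATAAAtgct
CCR7, brighter probe: gcacattttactcattacaAATAAAacttt
CCR7, dimmer probe: tgggcatacagcgcagccaagtcctgggtc
CXCR5, brighter probe: ccttcctctgcaaaaccgtgatttctctgc
CXCR5, dimmer probe: tgaggacagcaccagactgggagaagcgag
CXCR6: agactgtcaggagtctaagcagcacttctg

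CCR3 and IL8RB were the 2 receptor genes that passed the test, and both were lower in endometrium. A gene was called at an adjusted p of at most 0.05 (Benjamini-Hochberg over the 16654 probes tested with limma) and a fold change over 2. By this rule 2 of 16 receptor genes were downregulated in endometrium, against 0.12% of all probes tested, and 0 of 16 were upregulated, against 1.22%. Both genes passed the filter on dim probes through blood alone, with 8 of 8 channels well above background there and 2 of 8 in endometrium, so nothing is read from their count against that share. With no filter IL8RB was still called (adjusted p = 0.0492, limma) and CCR3 was not (adjusted p = 0.130). With p up to 0.05 before adjustment (limma) and the same fold change, 4 receptor genes (CCR3, IL8RB, CXCR5 and CCR7) were lower, where 8.05% of all probes were, and CXCR6 was higher, where 7.98% were. Lower values in endometrium in 4 of 4 animals were found for 5 receptor genes (CCR1, CCR3, CXCR4, CXCR5 and IL8RB), against 15.2% of all probes. Higher values in 4 of 4 were found for CXCR6, against 9.82%. Some of these differences were small, with log2 ratios in animal 4 of -0.02 for CCR1, -0.09 for CXCR5 and 0.01 for CXCR6. For CXCR4 the ratio was -0.02 in animal 1. In each of these cases the 2 arrays of the animal differed in sign. The median log2 ratio of endometrium over blood was -0.71 over the 16 receptor genes and -0.14 over all probes tested. By animal, the receptor median was -0.57, -1.79, -1.39 and 0.08 in animals 1 to 4, and 10, 13, 11 and 7 of the 16 genes were lower in endometrium.

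**Figure D1:**
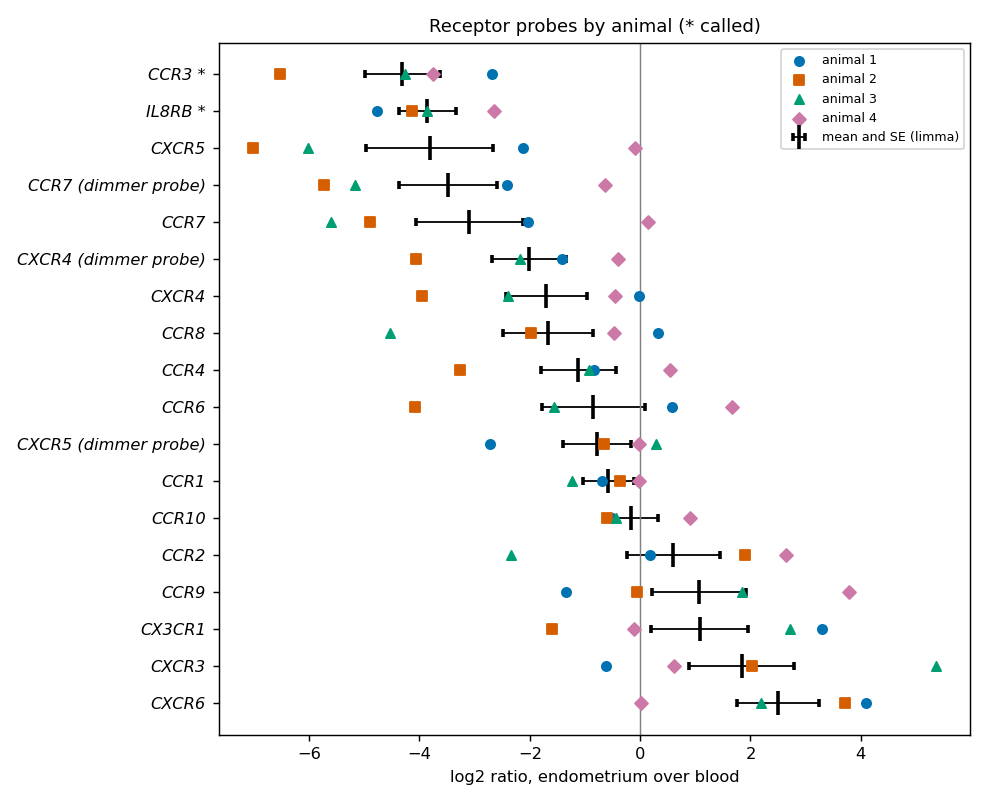
Log2 ratio of endometrium over blood for 18 receptor probes, by animal (coloured points), with the mean and SE from limma (black). CCR3 and IL8RB, marked with an asterisk, are the probes that were called, with means of -4.31 and -3.86, and the points of animal 4 lie near 0 for CCR7, CXCR5 and CXCR6.

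CCR3, the receptor of the eotaxins on eosinophils and basophils, was 19.8-fold lower in endometrium. Its log2 value in blood was 6.41, 8.88, 7.24 and 6.40 in animals 1 to 4, with a mean of 7.23 ± 1.17 (SD, n = 4). In endometrium it was 3.72, 2.35, 2.98 and 2.64, with a mean of 2.92 ± 0.59 (SD, n = 4). All endometrial values lay below all blood values, so the tissues did not overlap, and animal 2 had the highest blood value. The mean log2 ratio was -4.31 (SE 0.68, adjusted p = 0.0374, limma), lower in 4 of 4 animals, and its values on the 2 arrays of an animal differed by at most 0.52. In endometrium the probe was well above background in 2 of 8 channels, both of animal 1. Where each of the other 6 channels was set to the lowest signal of any probe well above background there, CCR3 was at least 5.51-fold lower.

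IL8RB, a receptor of interleukin 8 known from neutrophils, was 14.5-fold lower in endometrium. Its transcript stands under CXCR1 in the current RefSeq table, which gives IL8RB as an older name of both CXCR1 and CXCR2, so which of these the probe measures was not settled here. The log2 value in blood was 9.78, 7.11, 8.44 and 6.41 in animals 1 to 4 (mean 7.93 ± 1.49, SD, n = 4), and in endometrium 5.01, 2.96, 4.58 and 3.76 (mean 4.08 ± 0.91, SD, n = 4). Again every endometrial value lay below every blood value, and the measured ratios of the animals were -4.77, -4.14, -3.86 and -2.65. Those of animals 2 to 4 rest on endometrial signals not well above background, so their spread is not compared with that of CCR3. Of 16 receptor genes, these 2 had tissues that did not overlap, with endometrium below in both. Over all probes, endometrium lay wholly below blood for 3.37% and wholly above for 2.7%. Since both genes passed the filter on dim probes through blood alone, nothing is read from this count against these shares. The log2 ratio was -3.86 (SE 0.52, adjusted p = 0.0195, limma). The endometrial signal was well above background in 2 of 8 channels, both of animal 1, and with the same floor in the others IL8RB was at least 7.15-fold lower.

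**Figure D2:**
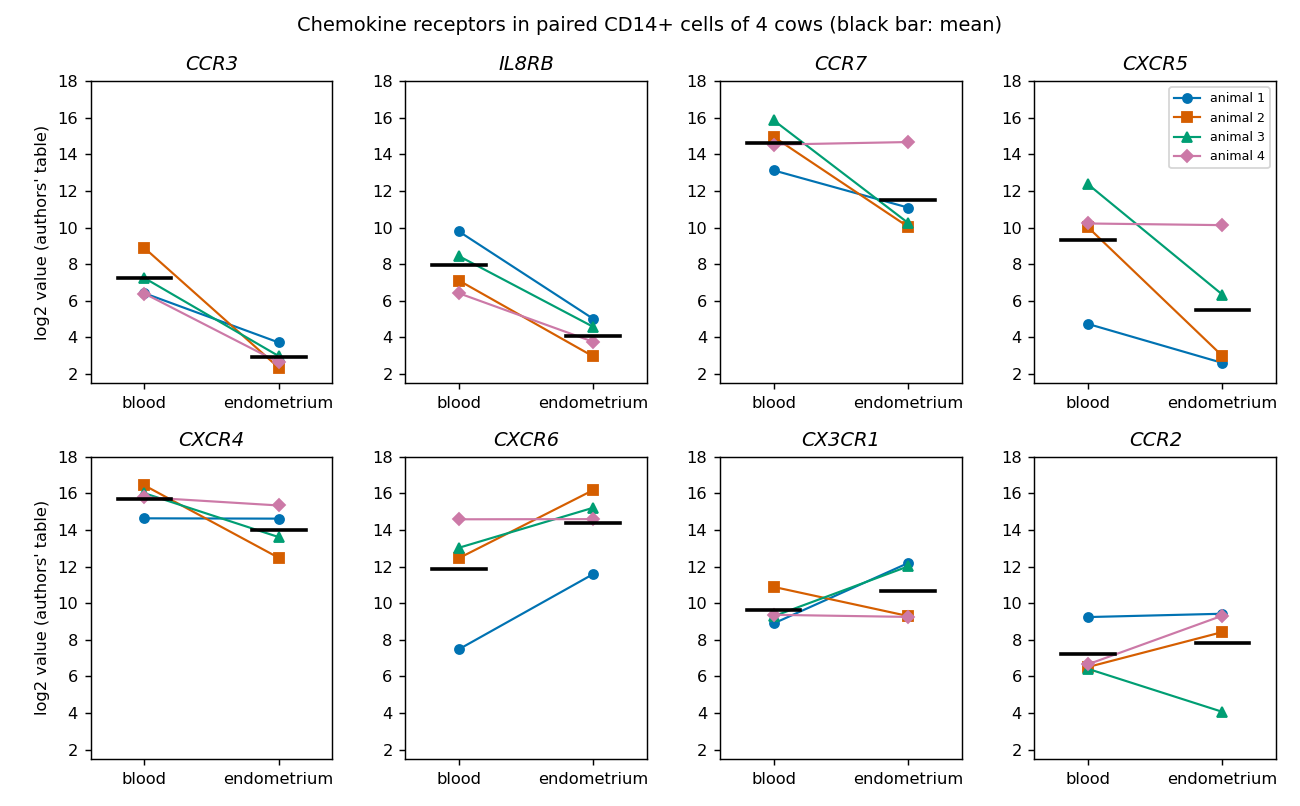
Log2 values of 8 receptors in blood and endometrial CD14+ cells, with a line for each of 4 animals and a black bar for the mean of 4. The tissues do not overlap for CCR3 and IL8RB, and they overlap for the other 6 receptors, with lines of animal 4 that are nearly level for CCR7, CXCR5 and CXCR6.

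Both calls were lost under another processing and, with fewer animals, without any 1 animal. With the scanner's median intensities corrected by normexp, 50 was added to each intensity, which draws the ratios of dim probes towards 0. By this processing the log2 ratio was -0.85 for CCR3 (adjusted p = 0.295, limma) and -1.08 for IL8RB (adjusted p = 0.276), which did not pass the test. The endometrial values of CCR3 then lay between 5.92 and 6.07 (log2), so these 2 ratios are not read as sizes of the difference. Without any 1 animal the ratios stayed between -4.85 and -3.57 for CCR3 and between -4.26 and -3.55 for IL8RB, while the adjusted p (limma) was between 0.0734 and 0.127 and between 0.0587 and 0.0951. Without animal 1 they were -4.85 (adjusted p = 0.0752) and -3.55 (adjusted p = 0.0951). The brighter probes of CCR7 and CXCR4 and the probe of CXCR6, which were well above background in all 16 channels, had -2.94, -1.69 and 2.22 with normexp, close to their values below. The dimmer probe of CCR7, also above background in all 16, moved from -3.48 to -2.06, and the brighter probe of CXCR5 from -3.81 to -1.81.

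**Figure D3:**
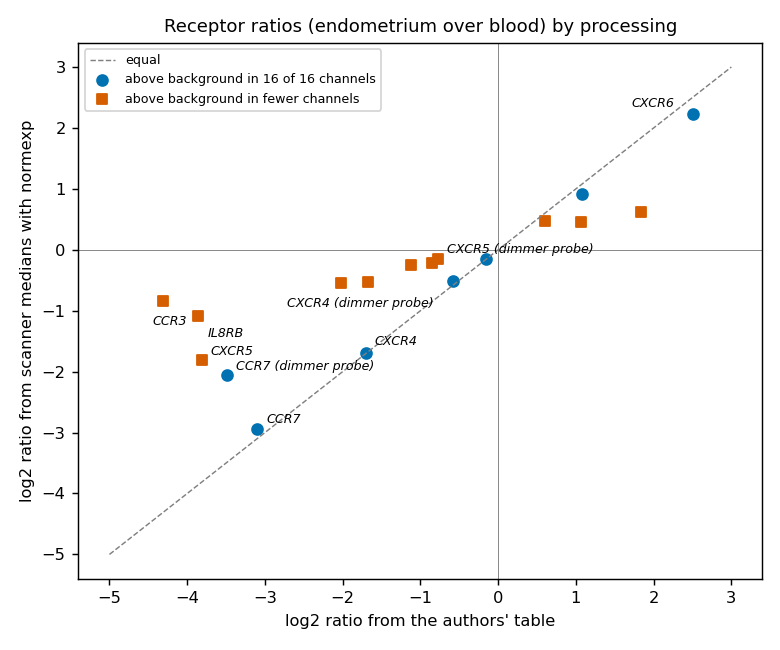
Log2 ratio of endometrium over blood of 18 receptor probes from the value table (horizontal axis) and from scanner medians with normexp background correction (vertical axis); the dashed line marks equal ratios. CCR3 and IL8RB move from -4.31 and -3.86 to -0.85 and -1.08, the dimmer probe of CCR7 and the brighter of CXCR5 from -3.48 and -3.81 to -2.06 and -1.81, and the brighter probes of CCR7 and CXCR4 are at -2.94 and -1.69.

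Among the receptors of lymphocytes, CCR7, which guides cells to lymph nodes along CCL19 and CCL21, was lower in endometrium in 3 of 4 animals by its brighter probe. This probe gave 13.12, 14.95, 15.86 and 14.53 in the blood of animals 1 to 4 and 11.09, 10.05, 10.26 and 14.67 in endometrium. The endometrial cells of animals 1, 2 and 3 lay below all blood values, and those of animal 4 were at the level of blood, so the tissues overlapped. The mean log2 ratio was -3.10 (SE 0.97, adjusted p = 0.217, limma), which did not pass the test. The dimmer probe, to other bases of CCR7, gave -3.48 (SE 0.89, adjusted p = 0.166) and was lower in 4 of 4 animals, with -0.64 in animal 4. Both probes were well above background in all 16 channels.

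CXCR5, the receptor of CXCL13 that leads B cells to follicles, had 2 probes that differed from each other. The brighter gave 4.73, 10.01, 12.35 and 10.22 in blood and 2.61, 2.99, 6.34 and 10.13 in endometrium. Endometrium was lower in 4 of 4 animals, but animal 4 had a ratio of only -0.09, and animal 1 was low in both tissues. The mean ratio (log2) was -3.81 (SE 1.15, adjusted p = 0.210, limma), and the endometrial signal was well above background in 4 of 8 channels. For the dimmer probe the ratio was -0.78 (SE 0.62, adjusted p = 0.572), and animal ratios lay between -2.73 and 0.29. Their ratios differed by up to 6.37 in an animal.

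B cell markers were examined beside CCR7 and CXCR5. Of 9 B cell marker genes tested, 8 had lower means in endometrium and 2 were called, where 0.12% of all probes were called lower. These were BLK with a log2 ratio of -3.36 (adjusted p = 0.0269, limma) and POU2AF1 with -4.41 (adjusted p = 0.0397). POU2AF1, like CD79B, passed the filter on dim probes through blood alone, with 8 of 8 channels well above background there and 2 of 8 in endometrium. Nothing is therefore read from this count against that share. The median of the list was -2.77, -3.21, -4.04 and -0.50 in animals 1 to 4, with animal 4 nearest 0, as for CCR7 and CXCR5. This was not particular to B cell genes, since animal 4 was also nearest 0 for CXCR6 and for the blood monocyte list. Over all probes tested, the SD of the log2 ratios was 1.63, 1.61, 2.37 and 1.39 in animals 1 to 4, smallest in animal 4. The summed signal of the list lay between 14.5 and 17.1 (log2) in blood and between 13.4 and 15.8 in endometrium, and each of the 9 was well above background in some channels of both tissues. Their part in the CCR7 and CXCR5 results was not tested. The T cell list, with 12 genes tested and 0 called, had a median of -0.16, with 6 lower means, and summed signals of 10.8 to 16.9 in blood and 13.3 to 17.4 in endometrium.

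The other lymphocyte receptors pointed both ways. CXCR6, the receptor of CXCL16 on T and natural killer cells, had the highest log2 ratio of the receptors. Its log2 value was 7.49, 12.47, 13.03 and 14.58 in blood and 11.59, 16.18, 15.22 and 14.59 in endometrium. Endometrium was higher by 4.10, 3.71 and 2.18 in animals 1 to 3 and equal within 0.01 in animal 4. The log2 ratio of 2.50 (SE 0.74, adjusted p = 0.206, limma) did not pass the test, and the tissues overlapped, with animal 1 lowest and animal 4 highest in blood. For CXCR3, the receptor of CXCL9, CXCL10 and CXCL11, the mean was 1.84 (SE 0.95, adjusted p = 0.386), animal ratios ran from -0.63 to 5.37, and 3 of 8 channels of blood and 6 of 8 of endometrium were well above background. Of 6 natural killer markers tested, 0 were called, 5 had higher means in endometrium, the list's median was 1.06, and its summed signal was 12.8 to 16.1 in blood and 15.7 to 17.8 in endometrium; their part in the CXCR6 and CXCR3 values was not tested. CCR4, CCR6 and CCR8, known from helper and regulatory T cells, had log2 ratios of -1.12, -0.85 and -1.67 (adjusted p of 0.451, 0.700 and 0.366, limma), each with animals on both sides of 0. CCR9, of gut-homing lymphocytes, had 1.06 (adjusted p = 0.576) and ranged from -1.34 to 3.78, at 4 of 8 channels above background in each tissue. CCR10, known from skin-homing T cells and plasma cells, had -0.16 (adjusted p = 0.908).

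CXCR4, the widely shared receptor of CXCL12, was measured by 2 probes that overlap. The array describes the brighter as bovine CXCR4 and the dimmer as similar to its human counterpart. They share a run of 21 bases, in capitals here, and where they overlap, over 48 bases, they differ at 9.
CXCR4, brighter probe: attcTCAGCTATTTGTAAATAAGTGatctc
CXCR4, dimmer probe: atttTCAGCTATTTGTAAATAAGTGgattt
The brighter probe gave 14.64, 16.44, 16.01 and 15.79 in blood and 14.62, 12.48, 13.61 and 15.34 in endometrium. Endometrium was lower in 4 of 4 animals, with ratios of -3.95 and -2.39 in animals 2 and 3 but only -0.02 in animal 1 and -0.45 in animal 4. Their mean was -1.70 (SE 0.74, adjusted p = 0.319, limma). The dimmer probe, above background in 5 of 8 endometrial channels, gave -2.02 (SE 0.66, adjusted p = 0.232) with animal ratios of -1.41, -4.06, -2.19 and -0.41. Neither probe passed the test, and by both animal 2 had the lowest ratio.

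The receptors for which monocytes are known did not pass the test. CCR2, which draws monocytes out of the marrow towards CCL2, gave 9.25, 6.52, 6.41 and 6.67 in blood and 9.43, 8.43, 4.07 and 9.32 in endometrium. It was higher in endometrium in animals 2 and 4, lower in animal 3 and near level in animal 1. Of the endometrial channels 6 of 8 were above background, and those that were not were of animal 3. The floor of 5.72 there lay below the blood value of 6.41, so the size of that difference is known only as a bound. The mean log2 ratio of CCR2 was 0.60 (SE 0.84, adjusted p = 0.774, limma).

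CX3CR1, of patrolling monocytes and tissue macrophages, gave 8.89, 10.89, 9.29 and 9.37 in blood and 12.19, 9.30, 12.01 and 9.25 in endometrium. In animals 1 and 3 it was higher in endometrium, by 3.29 and 2.72, in animal 2 it was lower, with a ratio of -1.59, and in animal 4 it was near level. Over the 4 animals the log2 ratio was 1.08 (SE 0.87, adjusted p = 0.580, limma). For CCR1, a receptor of CC chemokines such as CCL5, the mean ratio (log2) was -0.58 (adjusted p = 0.576), and all 16 channels were well above background. CCR1 lay between 8.77 and 14.88 in blood and between 8.41 and 14.18 in endometrium, and animal 1 was highest in both tissues. LOC529196 was not tested; its log2 values were 2.80 to 3.49 in blood, with no channel well above background, and 2.56 to 5.83 in endometrium.

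Defining markers were examined beside these values. Of 6 monocyte and macrophage markers tested, 1 was called, MSR1, a scavenger receptor, with a log2 ratio of 4.61 (adjusted p = 0.0109, limma), where 1.22% of all probes were called higher, and the list's summed signal was 9.64 to 17.1 in blood and 11.9 to 17.9 in endometrium. The 5 blood monocyte markers had lower means in endometrium and 0 were called, and their median log2 ratio was -3.91 and -2.03 in animals 1 and 2 but 1.08 and 0.66 in animals 3 and 4. Beside IL8RB, the neutrophil list had 7 genes tested, 3 with lower means and 0 called, and a median of 0.05. Its summed signals were 10.73 to 14.80 in blood and 10.53 to 12.57 in endometrium. The largest log2 ratios of the list were 2.75 for LTF (adjusted p = 0.215, limma) and -1.99 for CSF3R (adjusted p = 0.306). LTF was higher and CSF3R lower in 4 of 4 animals, as 9.82% and 15.2% of all probes were. CATHL1 and CATHL4 were well above background in 0 of 16 channels. Beside CCR3, the eosinophil and basophil list had 2 genes tested, HDC at -0.68 (adjusted p = 0.513) and GATA1 at 2.04 (adjusted p = 0.397), and 0 of 8 blood channels of GATA1 rose well above background. Of the trophoblast and epithelial markers tested, 4 of 5 and 5 of 6 were called higher in endometrium, where 1.22% of all probes were. Their median log2 ratios were 4.88 and 4.16. The remaining trophoblast marker, PAG1, had a lower mean in endometrium, with -2.10 (adjusted p = 0.230, limma). Stromal markers had 2 of 5 called higher, where 1.22% of all probes were, and a median of 3.66. Of the called, COL3A1 passed the filter on dim probes through endometrium alone, with 2 of 8 blood and 6 of 8 endometrial channels well above background. Nothing is therefore read from this count against that share. The part of these cells in the receptor results was not tested.

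**Figure D4:**
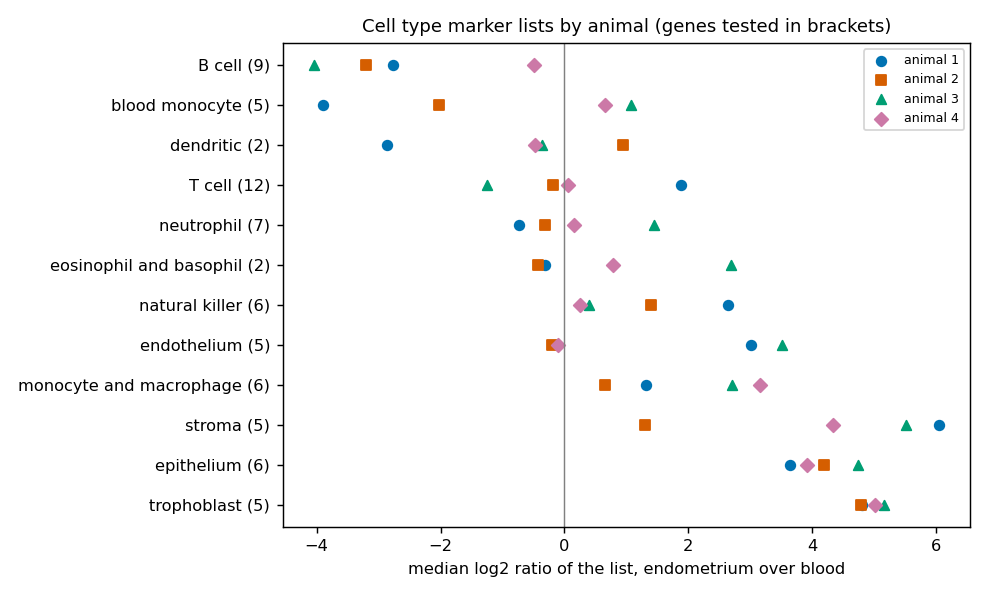
Median log2 ratio of endometrium over blood of 12 lists of cell type markers, by animal, with the number of genes tested in brackets. B cell markers are below 0 in each animal and closest to 0 (-0.50) in animal 4, and trophoblast and epithelial markers are above 3 in each.

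Among the chemokines themselves, 3 of 25 tested genes were upregulated in endometrium, where 1.22% of all probes were, and 0 were downregulated, where 0.12% were. One of them, CCL22, passed the filter on dim probes through endometrium alone, so nothing is read from this count against those shares. CCL24, an eotaxin that acts on CCR3, was 16.6-fold higher, and at least 14.8-fold with the same floor in the 2 of 8 blood channels that were not well above background. Endometrium exceeded blood in every animal, by 4.16, 4.16, 3.75 and 4.15 in animals 1 to 4. The log2 ratio was 4.06 (SE 0.44, adjusted p = 0.00978, limma).

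CCL22, a ligand of CCR4, was at least 17.0-fold higher in endometrium, since 2 of its 8 blood channels were well above background and the others were set to the floor. Its measured values gave a log2 ratio of 4.86 (SE 0.50, adjusted p = 0.00875, limma) and animal ratios of 5.49, 4.78, 3.76 and 5.40. CXCL14, whose receptor is not settled, was 36.7-fold higher, and at least 26.5-fold with the floor in 2 of 8 blood channels, with a log2 ratio of 5.20 (SE 0.48, adjusted p = 0.00733). Of the other eotaxins, CCL26 had 1.83 (adjusted p = 0.346), with 3.45, 0.12, 4.08 and -0.33 in animals 1 to 4, and CCL11 was not tested, at 1 of 8 blood and 2 of 8 endometrial channels above background.

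Of the 13 CC chemokines tested, 5 were higher in 4 of 4 animals (9.82% of all probes were) and 2 were lower in 4 of 4 (15.2% of all probes were), with a median log2 ratio of 1.83. CCL2 and CCL8, which act on CCR2, had log2 ratios of 2.41 (adjusted p = 0.109, limma) and 2.46 (adjusted p = 0.152), and CCL14, a ligand of CCR1, had 3.44 (adjusted p = 0.163), none of which passed the test. CCL28, a ligand of CCR3 and CCR10, reached well above background on 0 of 8 blood and 5 of 8 endometrial channels. Its endometrial mean lay 1.46-fold above the blood floor, endometrium was lower in animal 3, and the measured ratio did not pass the test (adjusted p = 0.268, limma).

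The 12 CXC, CX3C and C chemokines tested had a median of -0.35. CXCL5 and PPBP, ligands of the interleukin 8 receptors, had log2 ratios of -3.97 (adjusted p = 0.224, limma) and -3.02 (adjusted p = 0.232). CXCL8, interleukin 8 itself, named here because it gives IL8RB its name, had -2.08 (adjusted p = 0.215) and was lower in 4 of 4 animals, with -3.79, -2.85, -0.92 and -0.78. None of these 3 passed the test. Of the ligands of CXCR3, CXCL9 had 2.26 (adjusted p = 0.320), with 3 of 8 blood and 4 of 8 endometrial channels above background. CXCL11, with 0 of 8 and 4 of 8, had an endometrial mean 2.25-fold above the blood floor. It did not pass the test by its measured ratio (adjusted p = 0.219). CXCL10, named here as the remaining ligand of CXCR3, had -0.43 (adjusted p = 0.811, limma) and was above background in all 16 channels. CX3CL1, the ligand of CX3CR1, was not tested, since it was above background in 0 of 8 blood and 2 of 8 endometrial channels, and CXCL13, the ligand of CXCR5, was above background in none of the 16.

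**Figure D5:**
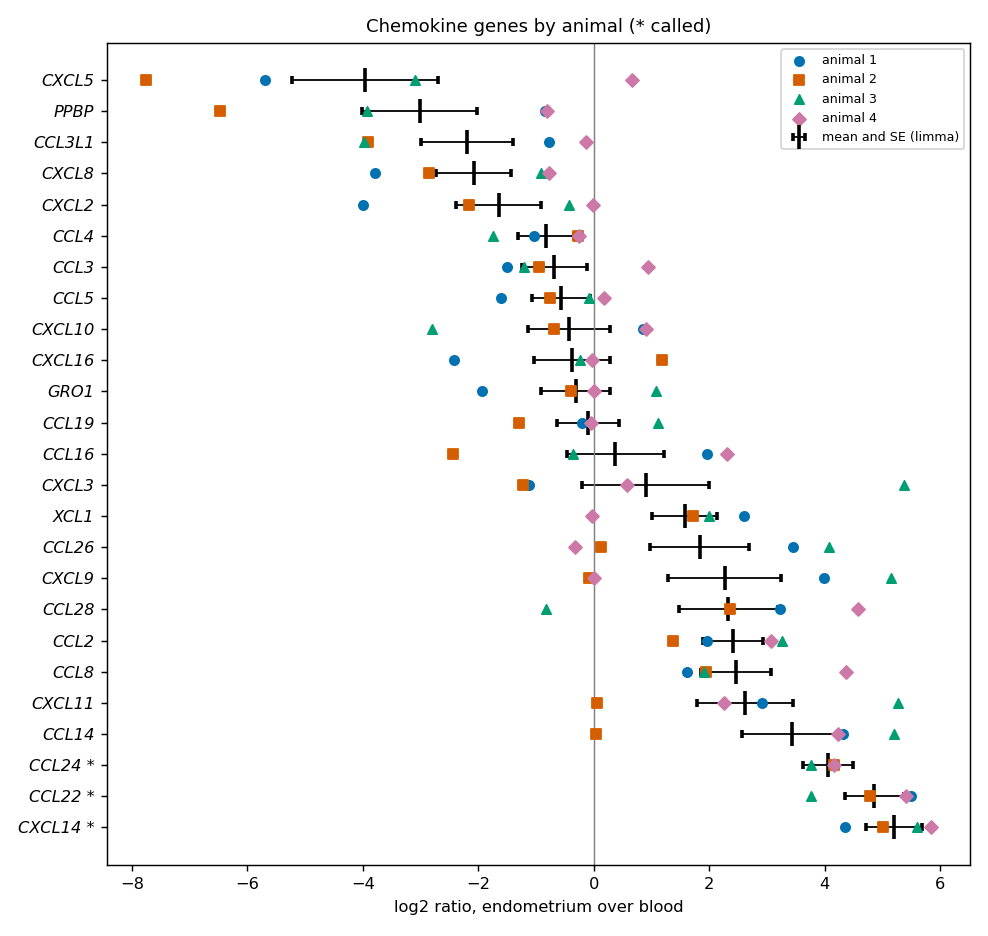
Log2 ratio of endometrium over blood of the 25 chemokine genes tested, by animal (coloured points), with the mean and SE from limma (black). CCL24, CCL22 and CXCL14, marked with an asterisk, were called and lie at 4.06, 4.86 and 5.20, and CXCL5 and PPBP have the lowest means, -3.97 and -3.02.

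Atypical and other chemoattractant receptors showed no call. Of 10 tested, 5 had lower means in endometrium, and the median log2 ratio was -0.01. The scavenging receptors ACKR2 and ACKR3 had 1.87 (adjusted p = 0.295, limma) and 1.57 (adjusted p = 0.404), the complement receptor C3AR1 had 1.86 (adjusted p = 0.309), and the oxysterol receptor GPR183 had -1.52 (adjusted p = 0.335). Of 31 genes of receptor signalling and desensitization, all of which were tested, 24 had lower means in endometrium. Their median log2 ratio was -0.43, against -0.14 over all probes tested. The share of all probes with lower means was not counted, so nothing is read from the 24. In 4 of 4 animals 7 were lower (15.2% of all probes were) and 3 were higher (9.82% of all probes were), and 0 were called. PIK3R5, a regulatory subunit of the phosphoinositide 3-kinase that G proteins activate, had -2.43 (adjusted p = 0.0866), and STAT3 had -1.20 (adjusted p = 0.299). RGS2 and RGS1, which shorten G protein signals, had 3.20 (adjusted p = 0.145) and 1.80 (adjusted p = 0.330).

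The patterns most like those of the 4 receptors with the largest ratios were sought among 10871 named probes, by Pearson's r over the 8 means of tissue and animal, which share arrays and animals. For CCR3 these were CD80 (r = 0.974), ROPN1L (0.965) and PCIF1 (0.959), for IL8RB DNAJB9 (0.982), FCRL5 (0.963) and ELOC (0.958), for CXCR5 TCF3 (0.991), WAC (0.984) and NUP50 (0.979), and for CCR7 RBM15B (0.985), BCL2L13 (0.981) and BZW1 (0.979). These r values describe the 8 means and were not tested.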

How the data were processed

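RNA of sorted CD14+ cells was amplified, labelled and hybridized to 8 Agilent 4x44K bovine arrays. In the authors' table, log2 values are given for the 16 channels, normalized by lowess and by quantiles. Their deposited scanner files give the intensity of each spot. The labels name Feature Extraction 9.5, and the file headers name 10.5.1.1. To match them, each channel's processed signals were put on the table's values by rank and averaged over the spots of a probe. So ranked, a scanner channel with the column's own dye label equalled each column at 100% of probes within 0.001 (log2). That channel was in the file that GEO attaches to the animal's other technical replicate. In the column's own file at most 0.689% of probes were equal. Spot by spot, 40.9% to 41.0% were equal for the match. Scanner files were read accordingly. Their flags decided which probes were well above background.

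Spots of a probe and the 2 arrays of an animal were averaged, and the ratio of endometrium over blood was tested with limma 3.58.1 (lmFit and eBayes; R 4.3.3, statmod 1.5.0, data.table at version 1.17.8) over 4 animals. The pairing comes from the labels, where both tissues of an animal share its number; their deviations from the tissue means correlated with r of 0.628, 0.372, 0.239 and 0.452. An exact permutation of the tissues within 4 animals cannot give a p under 0.125. By channel, 65.2% to 82.9% of spots rose well above background and none were saturated; each animal had only 2 arrays, and with 4 animals these numbers limit the precision.

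The brightest probe stood for a gene. Named genes were the receptors, the called members of fixed lists, otherwise up to 4 with the largest ratio, and the 3 patterns most alike for 4 receptors. The lists are CC chemokines, CXC, CX3C and C chemokines, atypical and other chemoattractant receptors, receptor signalling, and markers of monocytes and macrophages, blood monocytes, B cells, T cells, natural killer cells, neutrophils, eosinophils and basophils, dendritic cells, trophoblast, epithelium, stroma and endothelium. The dendritic list had 2 genes tested, 0 called and a median log2 ratio of -0.69; the endothelial list had 5, 0 and 1.72; and the blood monocyte list a median of -1.03. Counts cover every receptor, but the values of 1 are not reported here. Members and lists were chosen with earlier results of these data known. Names were updated from the RefSeq gene table of assembly ARS-UCD2.0, which matched 19 of the 20 receptor probes. Alternatives changed the values, the background correction, the filter, the pairing, the dye term, the technical replicates, the animals, the test, its threshold and the probe of a gene.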

Additional observations from a re-analysis of the deposited data

Results flagged for a closer look

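Each of the 19 receptor probes tested was examined in blood, in endometrium and over the 4 ratios for a value far from the other 3 (Dixon's test), 57 sets of 4 in all, and chance marks about 1 in 20 such sets. Of these sets, 4 were marked. CCR2 in the blood of animal 1 had a log2 value of 9.25, while the blood of the other animals had 6.41 to 6.67. The dimmer probe of CCR7 in the blood of animal 1 had 7.11, against 11.07 to 11.85 in the others. CCR10 in the blood of animal 2 had 12.75, against 11.77 to 11.91, and the log2 ratio of CCR10 in animal 4 was 0.91, against -0.60 to -0.43.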

How the results depend on the processing

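All alternatives here were planned. The receptor genes called lower (2) numbered 2 with a minimum intensity of 16, with either technical replicate alone, with the mean of a gene's probes and with no minimum fold, and receptor genes called higher numbered 0 under each setting. They were 1 with the scanner's processed signals, with no filter and with no replicate block, which undid the pairing of the tissues, and 0 with normexp, with the scanner files as attached, with the 8 arrays and a dye term, and with the study's analysis of variance after adjustment, where 2 receptor genes had p up to 0.05 before adjustment and over 2-fold. Without 1 animal they were 0 to 0. With normexp, 4 receptor genes had an unadjusted p of at most 0.05.

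Over all probes, the 20 called lower and 204 called higher became 0 and 11 with normexp, 12 and 159 with processed signals, 8 and 115 with no filter, 3 and 35 with no replicate block, 37 and 211 with the dye term, 13 and 178 with technical replicate 1 alone, 0 and 0 with the files as attached and 0 and 0 with the analysis of variance (597 and 632 with p up to 0.05 before adjustment and over 2-fold). Without 1 animal they ranged from 0 to 4 and from 0 to 176, and were 0 and 0 without animal 4. The pathway genes called higher (3) became 0 with normexp, with no replicate block, with the files as attached and with the analysis of variance, and 0 to 4 without 1 animal, and 1 was called lower with the dye term. With the files as attached, blood and endometrium are exchanged in the 3 animals with swapped dyes, under the reading of the files used here. The cause of the other changes was not tested.

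Of 269 log2 ratios of receptor probes under alternatives, 15 changed sign. Without 1 animal, CCR2 ranged from -0.0859 (without animal 4) to 1.58 and CCR6 from -1.69 to 0.227 (without animal 2). The other 13 came from the scanner files as attached, where dyes of the swapped animals are exchanged: CCR2 -0.63, CCR3 0.48, CCR4 0.20, CCR6 0.0492, CCR7 0.28 and 0.0802, CCR8 0.0373, CCR9 -0.25, CXCR4 0.49 and 0.18, the dimmer probe of CXCR5 0.15, CXCR6 -1.15 and IL8RB 0.56. The median log2 ratio of all probes tested was -0.14 in the value table and -0.02 with normexp. In endometrium CCR3 and IL8RB were well above background in 2 of 8 channels each, so their size there is known only as a bound.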
